A study of Mus musculus with 4 samples.

Results

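The genes described here encode the integrins, the laminin chains, the nidogens Nid1 and Nid2, perlecan (Hspg2) and dystroglycan (Dag1). They were taken by symbol, as every gene whose symbol begins with Itga, Itgb, Lama, Lamb or Lamc, together with Nid1, Nid2, Hspg2 and Dag1. The integrin-binding and integrin-like genes Itgb1bp1, Itgb1bp2, Itgb3bp and Itgbl1 were left out. The rule gave 42 members among the 26994 genes of the deposited tables. Both this family and the lists of other genes and markers below were chosen with earlier results of these data known. The 22 members with a mean of at least 1 FPKM over the 4 libraries entered the tests, among 11716 genes that did so, and the other 20 are given by level only. FPKM counts fragments per kilobase of transcript, scaled to the mapped fragments of the library, and so is a level per length. The series concerns the Evx1as/Evx1 locus in mouse embryonic stem cells that differentiate once the cytokine LIF, which holds these cells in the pluripotent state, is taken away. All 4 libraries came from CJ9 cells, an embryonic stem cell line of strain 129S4/SvJae, labelled WT and titled as Cas9 only, and all were from cultures without LIF: 2 harvested at day 4 and 2 at day 6. Neither how Cas9 was delivered nor whether the cells were 1 clone is stated. The culture text of the labels states another duration than the title for 3 libraries: LIF was absent for 2 days in day 4 replicate 1, for 4 in day 6 replicate 1 and for 6 in day 4 replicate 2. Titles, time and harvest entries were followed here.

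A basement membrane is a thin sheet of extracellular matrix under epithelia and around many other cells, and it is the first matrix that an embryo makes. Laminins are secreted as trimers of an alpha, a beta and a gamma chain and polymerise at the cell surface, while nidogens and perlecan link the laminin network to that of collagen IV. Cells bind it through integrins, which are dimers of an alpha and a beta chain whose pairing sets the ligand, and through dystroglycan. Integrins carry the contact through adaptor proteins to the actin cytoskeleton. In the early embryo and in differentiating embryonic stem cells, extraembryonic endoderm is known as a strong source of laminin, nidogen and collagen IV.

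Some of the results below turn on a few short stretches of sequence. Itga6, the laminin-binding integrin alpha 6 chain, has 2 transcript rows that differ by 1 exon of 130 bases at chr2:71853534-71853663 (mm10, which is GRCm38; plus strand). The exon holds the cytoplasmic tail and stop codon of the form known as A; where it is skipped, the tail of the B form is read from the last exon. The coding ends are printed 5′ to 3′ from GRCm38 with GENCODE M21 exons, with the stop codon in capitals, the A form from chr2:71853534-71853641 and the B form from chr2:71855854-71856015. Both begin with similar bases and then diverge.
Itga6 A tail, NM_008397: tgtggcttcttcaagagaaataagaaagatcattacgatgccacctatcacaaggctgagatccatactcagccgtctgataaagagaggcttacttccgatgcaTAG
Itga6 B tail, NM_001277970: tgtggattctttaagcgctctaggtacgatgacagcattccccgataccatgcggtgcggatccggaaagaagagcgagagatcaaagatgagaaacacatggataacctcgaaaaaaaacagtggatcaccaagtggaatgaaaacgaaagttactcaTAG

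Lamb3, the laminin beta 3 chain, has 2 transcript rows with the same coding sequence and start sites 249 bases apart, and the row that held nearly all of the gene was not the same at the 2 days. The genomic stretches before them lie outside annotated exons, at chr1:193301893-193301992 for the upstream start and chr1:193302142-193302220 for the downstream one (GRCm38.p6, plus strand, promoter table from RefSeq). They are shown in lower case throughout, since no base in them is marked.
Lamb3 before the upstream start: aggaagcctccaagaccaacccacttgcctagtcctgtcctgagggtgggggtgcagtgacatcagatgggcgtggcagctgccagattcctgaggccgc
Lamb3 before the downstream start: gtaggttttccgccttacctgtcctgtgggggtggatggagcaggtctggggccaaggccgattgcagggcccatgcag

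Promoters from the same RefSeq table are shown for 3 of the genes that were higher at day 6: Lamb1 (chr12:31265043-31265232), Nid1 (chr13:13437352-13437541) and Itgb5 (chr16:33829415-33829664), all on the plus strand. The table held no entry for Lama1, Lama4, Lamc1 or Itga6. Motifs searched on both strands were AGATAA and TGATAA, bound by GATA factors, CCAAT, bound by NF-Y, GGGCGG, a GC box, and ACAAT, the core bound by Sox factors. Matches on either strand are in capitals.
Lamb1 promoter: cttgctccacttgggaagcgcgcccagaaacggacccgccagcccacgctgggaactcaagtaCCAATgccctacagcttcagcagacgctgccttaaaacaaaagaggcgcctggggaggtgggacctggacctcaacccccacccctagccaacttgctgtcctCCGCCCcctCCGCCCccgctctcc
Nid1 promoter: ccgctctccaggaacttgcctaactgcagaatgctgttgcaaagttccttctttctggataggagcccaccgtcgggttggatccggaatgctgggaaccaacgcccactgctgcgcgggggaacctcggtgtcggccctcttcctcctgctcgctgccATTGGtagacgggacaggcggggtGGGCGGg
Itgb5 promoter: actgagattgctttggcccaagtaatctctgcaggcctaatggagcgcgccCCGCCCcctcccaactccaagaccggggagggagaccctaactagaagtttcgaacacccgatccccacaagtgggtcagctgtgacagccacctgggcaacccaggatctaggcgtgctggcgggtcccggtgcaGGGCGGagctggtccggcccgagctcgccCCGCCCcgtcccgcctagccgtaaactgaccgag

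In the 250 bases before the start, the motif CCAAT had 1 match in Lamb1 and 1 in Nid1. The motif GGGCGG had 2 matches in Lamb1, 1 in Nid1 and 3 in Itgb5. Of 32851 promoter windows of that length, 33.8% held the first of these motifs and 32.7% the second, so such matches are common. Neither GATA motif lay in the 3 windows, against 10% of all windows for the one that begins with A and 7.9% for the one that begins with T, nor did the Sox core, against 27.7%. Further members were searched in the same way. Higher at day 6 as deposited, Itgav and Lamb2 held no match to any motif, while Dag1 held 3 of GGGCGG at each of its 2 starts. With overlapping days, Lama5 held 4 of GGGCGG, Hspg2 5, Itga5 2, Itgb1 1, and Itga3 3 and 1 at its 2 starts. Lamb3, lower at day 6, held no match at either start. A match is a description of letters, and its absence says only that the letters are not in that window.

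The 4 libraries were not equally deep, and the day 4 pair differed from each other by base composition. The deposited bounds correspond to about 4500000 and 4540000 mapped fragments at day 4, and 8000000 and 7060000 at day 6 (replicates 1 and 2 in that order, as throughout). Across genes, the log2 difference between the day 4 libraries went with the GC content of the transcripts (Spearman's rho 0.637 over 11414 genes and 0.886 over the 22 members tested; genes are not independent and share the libraries). At day 6 the same values were -0.047 and -0.169. Between day 4 replicates, GC-rich members such as Hspg2, Lama5 and Itga5 were 6.61, 6.10 and 5.57 times as high in replicate 2, while the GC-poor Itgb1 was 5.87 times as high in replicate 1. Of the 8 pluripotency markers, all tested, 4 were lower at day 6, 2 higher and 2 overlapping. Their summed level was 811 and 886 FPKM at day 4 and 225 and 221 at day 6, with Pou5f1, the core pluripotency factor, at 368, 377, 54.9 and 42 FPKM. The 2 higher at day 6 were Zfp42, at 20.6, 6.16, 21.4 and 24.9 FPKM, and Esrrb, at 3.0, 1.13, 5.11 and 4.35 FPKM. After GC correction 0 of the 8 were higher and 4 lower, and after median centring 1 was higher and 4 lower. The counts of marker genes that follow are to be set beside the 41.6% of all genes tested that were higher at day 6 without overlap and the 11.5% that were lower. Endoderm factors (6 of 7 tested higher at day 6) summed to 16.7, 18.4, 56.5 and 90.6 FPKM. Fibroblast or feeder markers (5 of 6) summed to 11.7, 8.63, 149.8 and 283, and endothelial markers (5 of 7) to 4.95, 2.15, 12.1 and 37.8. Visceral endoderm markers (2 of 2) summed to 0.566, 0.675, 10.3 and 19.3, with Afp listed at 0 in every library. Higher after GC correction were 6 endoderm factors, 5 fibroblast, 3 endothelial and 2 visceral endoderm markers, beside 27.9% of all genes. After median centring these counts were 4, 5, 4 and 1 in that order, beside 20.3%. Of the 8 parietal endoderm markers tested 7 were higher at day 6 and Fst lower, the 10 on the list summed to 517, 231.5, 1068 and 855 FPKM, and Srgn was listed at 0 in every library. That list holds the members Lama1 and Lamb1, and Col4a1, Col4a2 and Sparc of the basement membrane list. Surface epithelium markers (1 of 5 higher, 1 lower) summed to 1243, 2083, 4009 and 2543 FPKM. Most of that sum was Krt8 and Krt18, at 1803 and 1774 FPKM in day 6 replicate 1. Krt5 was listed at 0 in every library, Trp63 did not exceed 0.234 FPKM and Krt14 did not exceed 3.17 FPKM. Muscle markers (0 of 3 higher, 1 lower) summed to 55.7, 88, 409.8 and 66.6. Neural markers (0 of 4 higher, 2 lower) summed to 153, 98.5, 32.3 and 13.5. These marker sums differed between the days, and their part in the results below was not tested. In bulk RNA, a change in the number of cells of a type and a change in RNA per cell cannot be told apart.

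**Figure D1:**
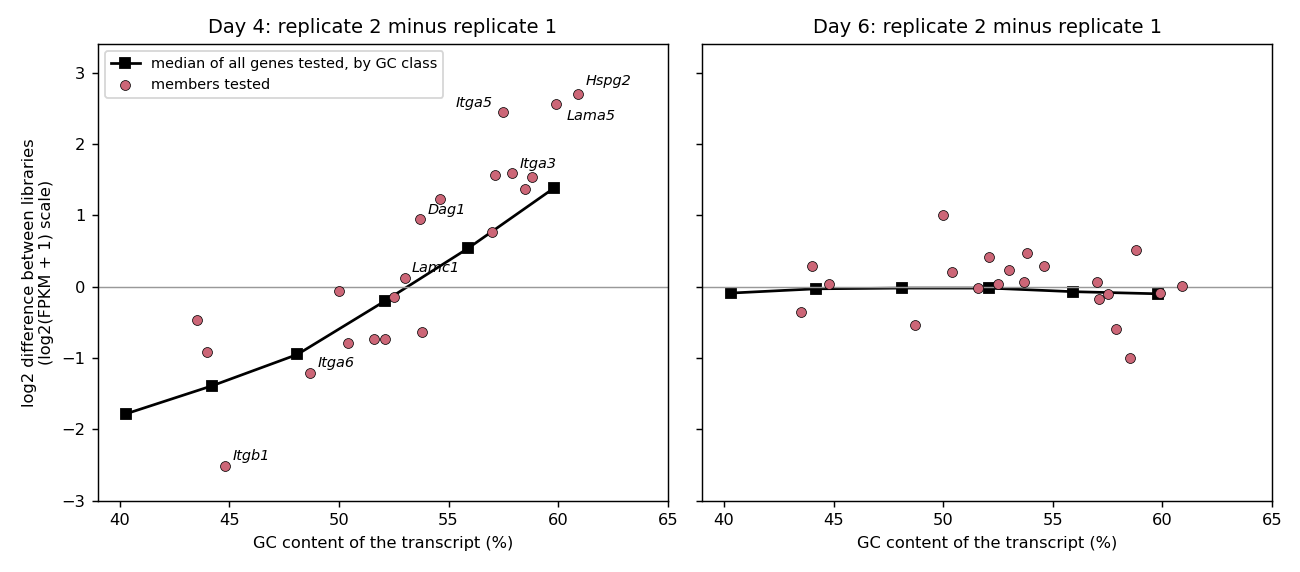
Difference between replicate libraries (replicate 2 minus replicate 1, log2(FPKM + 1) scale) against the GC content of the transcript in percent, at day 4 (left) and day 6 (right). Points are 21 of the 22 members tested, and black squares are medians of all genes tested in 6 classes of GC content; at day 4 those medians run from -1.78 to 1.38 and the members follow them, while at day 6 they stay between -0.10 and -0.02.

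Day 6 was compared with day 4 to ask which of these genes differed as differentiation went on. In 12 of the 22 members tested both day 6 libraries lay above both day 4 libraries, in 1 (Lamb3) both lay below, and in 9 the days overlapped. Of these 12, Lama1, Lama4 and Itgb3 had a day 4 mean under 1 FPKM and passed the filter only through day 6. A higher day 6 mean was thus fixed in advance for them, though not that the libraries of the days lay apart. Itga9, whose days overlapped, entered in the same way. The other 9 of the 12 had a day 4 mean of at least 1 FPKM. Over all genes tested 41.6% were higher and 11.5% lower by the same rule, set beside the members without a test. The median log2 difference was 0.99 for the members and 0.51 for all genes, on the log2(FPKM + 1) scale, so each difference below is to be read against 0.51 rather than 0. After each library was centred on its median, 9 members were higher and 4 lower, beside 20.3% higher and 26.4% lower among all genes. After correction for GC content 10 were higher and 5 lower, beside 27.9 and 27.1%. Higher as deposited and under median centring, quantile normalization and GC correction were 8 members: Lama1, Lama4, Lamb1, Lamc1, Nid1, Itga6, Itgb3 and Itgb5. They include the 3 that passed the filter through day 6. The share of all genes tested that met this joint rule was not counted, so the 8 stand without a background.

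No gene passed an adjusted p of 0.05 (limma, Benjamini-Hochberg; 0.0% of genes called), and so no member did. At an unadjusted p under 0.05 there were 8 members, beside 1793 genes or 15.3% of all. With 2 libraries against 2 an exact permutation test cannot go below 0.333. The count rests on the day 4 pair: without its replicate 1, 7837 genes and 18 members passed, and without its replicate 2, 6081 genes and 14 members, each with the lone day 4 library assumed to vary like the day 6 pair. Without either day 6 library 0 genes passed. Separate cultures are not stated for the libraries of a day, so these p-values measure only the spread between libraries, which may be technical.

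**Figure D2:**
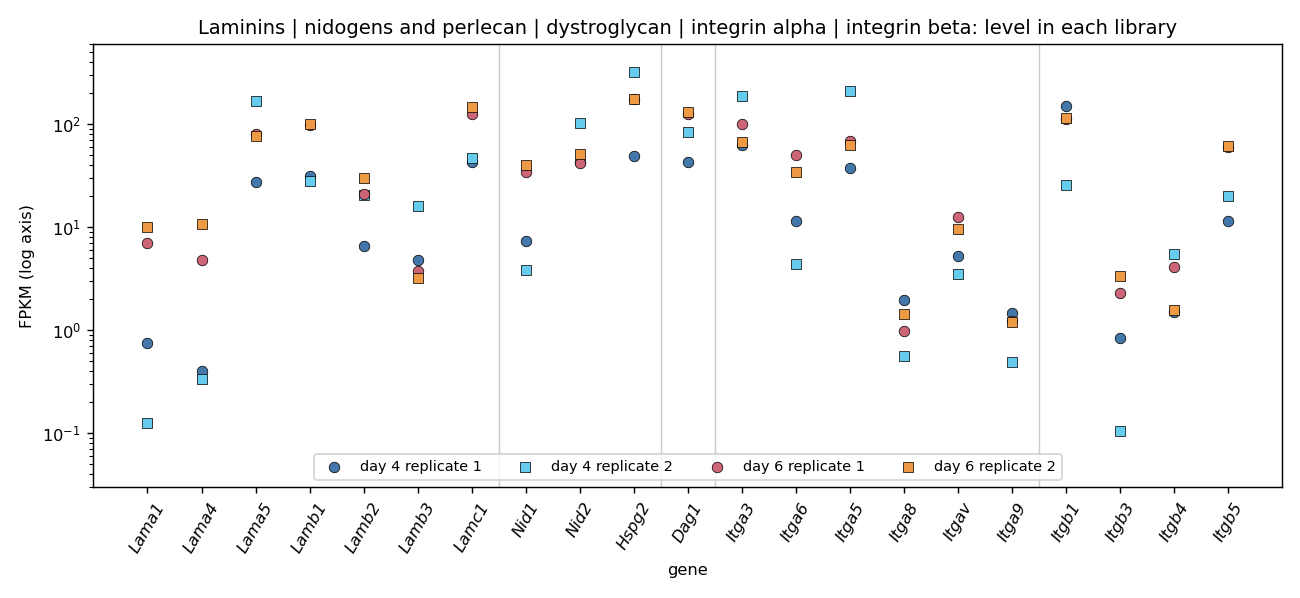
Level of 21 of the 22 members tested in each library, in FPKM on a log axis, ordered by role (laminin chains, nidogens and perlecan, dystroglycan, integrin alpha chains, integrin beta chains). Lama1, Lama4, Nid1, Itga6 and Itgb5 have both day 6 points well above both day 4 points, while Lama5, Hspg2, Itga3, Itga5 and Itgb1 have day 6 points between widely spaced day 4 points.

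**Figure D3:**
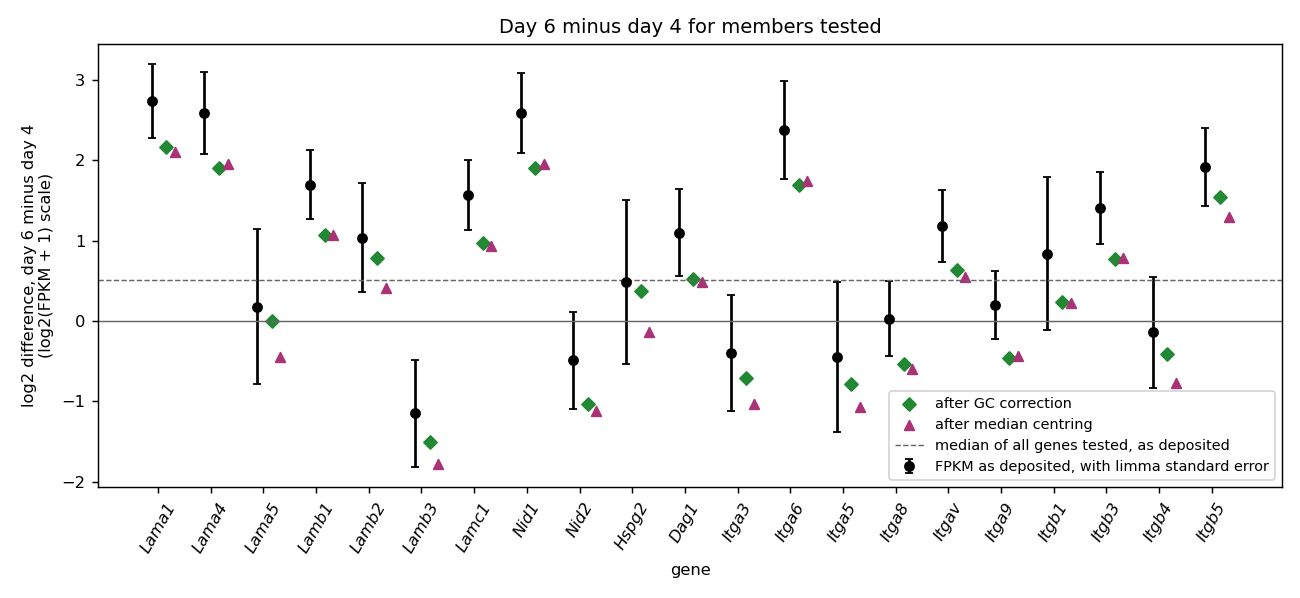
Log2 difference of day 6 minus day 4 on the log2(FPKM + 1) scale for 21 of the 22 members tested, as deposited (black points, bars of 1 limma standard error), after GC correction (green) and after median centring (purple). The dashed line is the median of all genes tested, 0.51; Lama1, Lama4, Nid1, Itga6 and Itgb5 lie furthest above it, and Lamb3 lies lowest at -1.15.

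Among laminin alpha chains, Lama1 and Lama4 were near the floor at day 4 and well measured at day 6, and Lama5 was the abundant chain throughout. Lama1, the alpha chain of the laminin of early embryos (chr17:67697265-67822645), was at 0.752 and 0.127 FPKM at day 4 against 6.99 and 10.1 at day 6. Its lower day 6 library was 9.29 times its higher day 4 library, and the log2 difference was 2.74 ± 0.46 (SE; limma adjusted p = 0.267), or 4.27 with a pseudocount of 0.1 FPKM. Lama1 is a textbook product of parietal endoderm, whose markers, given above, were mostly higher at day 6. The marker list includes Lama1 itself and Lamb1. Its sum was lower in day 6 replicate 2 than in replicate 1 (855 and 1068 FPKM), while Lama1 was higher there. Most of that sum was Sparc, at 593 and 479 FPKM in day 6 replicates 1 and 2. Single markers of the list did not share one direction between these libraries, with Plat at 11.7 and 6.11 FPKM and Lamb1 at 97.3 and 99.4 FPKM. The part of parietal endoderm in the level of Lama1 was not tested. Lama4, a chain of vessels and mesenchyme (chr10:38965515-39110188), was at 0.399 and 0.336 FPKM and then at 4.82 and 10.7 FPKM. The 2 days lay apart by 12.1 times at their nearest, with a log2 difference of 2.59 ± 0.51 (adjusted p = 0.267), or 3.97 with the smaller pseudocount. Both the fibroblast and the endothelial marker sums given above were higher at day 6, and highest in day 6 replicate 2, as Lama4 was. The endoderm factor and visceral endoderm sums shared this order, so it was not particular to the fibroblast and endothelial lists. The part of any of these cell types in the level of Lama4 was not tested.

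Lama5, the most widespread alpha chain of mature epithelia (chr2:180176373-180225859), was at 27.7 and 169 FPKM at day 4 against 80.9 and 76.0 at day 6. The day 4 libraries enclosed the day 6 libraries. The log2 difference was 0.18 ± 0.97 (adjusted p = 0.937), and it was -1.10 without day 4 replicate 1, 1.47 without replicate 2 and -0.45 after median centring. Within each library Lama5 made up 94.9, 99.6, 87.1 and 78.3% of the alpha chain FPKM, a level per length. Lama1 and Lama4 together with the low chains took up the rest, so the share of Lama5 was lower in each day 6 library than in either of day 4. Lama2, of muscle, and Lama3, of surface epithelia, stayed at or below 0.307 FPKM in every library.

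The beta and gamma chains of the most common trimers, Lamb1 and Lamc1, were close to each other in level and both higher at day 6. Lamb1 (chr12:31265294-31329639) was at 31.2 and 28 FPKM at day 4 against 97.3 and 99.4 at day 6, a ratio of means of 3.32. Its log2 difference was 1.70 ± 0.43 (adjusted p = 0.267). Lamc1 (chr1:153218922-153332786), the gamma chain of nearly all laminins, was at 43.1 and 47.1 FPKM and then at 125 and 148 FPKM. Its ratio of means was 3.03 and its log2 difference 1.57 ± 0.44 (adjusted p = 0.288). For these 2 genes the replicate libraries lay close together at both days. The ratio of Lamb1 to Lamc1 was 0.725, 0.596, 0.776 and 0.674, and so overlapped between the days.

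Lamb2 and Lamb3 did not share one direction. Lamb2, a chain of neuromuscular and kidney basement membranes, was at 6.51 and 20.7 FPKM at day 4 against 20.9 and 30.3 at day 6. Day 4 replicate 2 nearly reached day 6 replicate 1, and the days overlapped after median centring and after quantile normalization (log2 difference 1.04 ± 0.68, adjusted p = 0.494). That difference was 0.27 without day 4 replicate 1 and 1.80 without replicate 2. Lamb3 was the single tested member lower at day 6, at 4.77 and 16.1 FPKM and then at 3.76 and 3.22 FPKM. The lower day 4 library and the higher day 6 library were near each other, and the log2 difference was -1.15 ± 0.67 (adjusted p = 0.456), or -1.93 without day 4 replicate 1 and -0.36 without replicate 2. Lamc3 was listed at 0 at day 4, with 0.0872 and 0.140 FPKM at day 6.

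**Figure D4:**
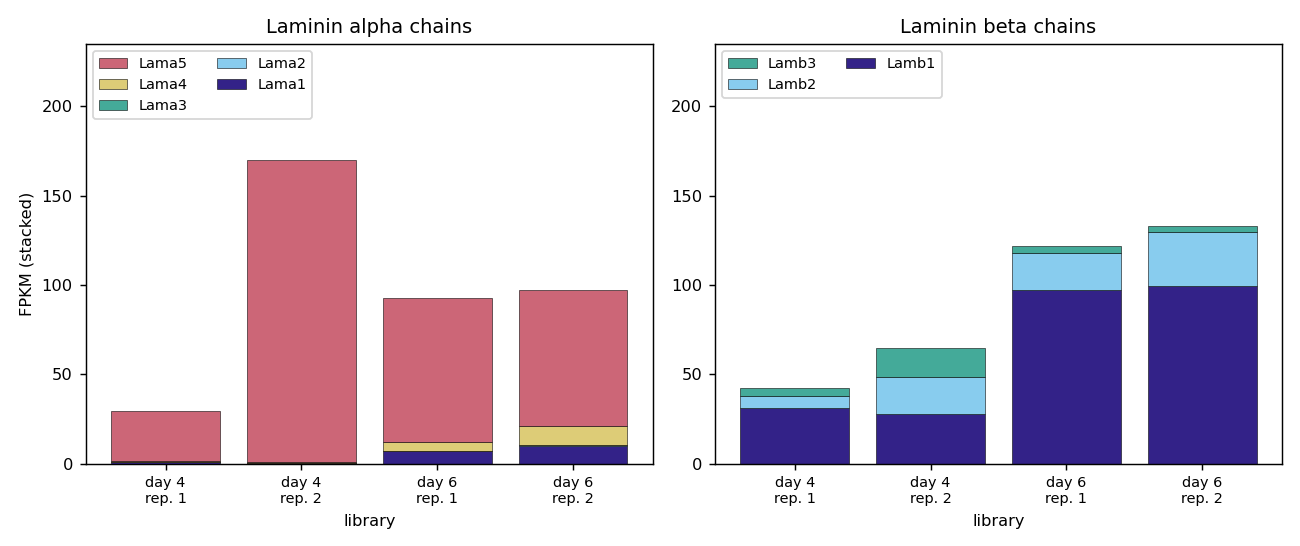
Stacked FPKM of the laminin alpha and beta chains in each library. The alpha sum was 29.2, 169.9, 92.9 and 97.1 FPKM and is mostly Lama5, and the beta sum was 42.5, 64.8, 122 and 133, with Lamb1 as its largest part in every library.

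FPKM is per length, but ratios, shares and sums over genes of unlike GC content carry the GC trend between the day 4 libraries. Lama5, with 59.9% GC, was 6.10 times as high in day 4 replicate 2 as in replicate 1, and Lamb1, with 52.5%, was 0.898 times as high, and the day 4 order of alpha and beta sums was not the same in the 2 libraries. The alpha sum was below the beta sum in day 4 replicate 1 and in both day 6 libraries, and above it in day 4 replicate 2, where Lama5 alone was at 169 FPKM. Lamb1 was 73.5, 43.3, 79.8 and 74.8% of the beta sum. Lamb3 took 11.2 and 24.8% of the beta sum at day 4 and 3.08 and 2.42% at day 6.

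The linkers of the laminin network parted into 1 gene that was higher at day 6 and 2 whose days overlapped. Nid1 (chr13:13437602-13512275), which binds the laminin gamma 1 chain and collagen IV, was at 7.37 and 3.83 FPKM at day 4 against 34.6 and 39.9 at day 6. Its days were 4.69 times apart at their nearest, with a log2 difference of 2.59 ± 0.50 (adjusted p = 0.267), and 2.06% of its exonic bases overlap an antisense gene; strand use in the authors' counting is not given, so reads of the 2 strands may be mixed. Nid2, its paralogue with overlapping functions, was at 43.2 and 102 FPKM and then at 42.4 and 51.9 FPKM. The day 6 libraries lay around the lower day 4 library, and the log2 difference was -0.49 ± 0.60 (adjusted p = 0.706), or -1.10 without day 4 replicate 1 and 0.12 without replicate 2. Rtraf, on the other strand, shares 8.45% of the exonic bases of Nid2. The ratio of Nid1 to Nid2 was 0.171 and 0.0375 at day 4 and 0.815 and 0.768 at day 6. Nid2 stayed the higher of the 2 nidogens in every library.

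Hspg2, which encodes perlecan, a large heparan sulfate proteoglycan (chr4:137468803-137570630), was at 48.7 and 322 FPKM at day 4 against 176 and 177 at day 6. Day 6 lay between the day 4 libraries, much as for Lama5, and the 2 genes also have the highest GC content among members tested, 60.9 and 59.9%. The log2 difference was 0.49 ± 1.02 (adjusted p = 0.833), or -0.86 without day 4 replicate 1, 1.84 without replicate 2 and -0.14 after median centring. Dag1, which encodes both subunits of dystroglycan, the non-integrin laminin receptor (chr9:108204861-108263958), was at 42.7 and 83.1 FPKM and then at 126 and 132 FPKM. Its day 6 libraries lay above both day 4 libraries by 1.52 times at the nearest, but overlapped them after median centring. The log2 difference was 1.10 ± 0.54 (adjusted p = 0.402), or 0.63 without day 4 replicate 1 and 1.58 without replicate 2.

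Of the laminin-binding integrin alpha chains, Itga6 was higher at day 6, Itga3 overlapped and Itga7 was below the filter. Itga6 (chr2:71786939-71858427) pairs with Itgb1 or, in hemidesmosomes, with Itgb4. It was at 11.5 and 4.42 FPKM at day 4 against 50.5 and 34.5 at day 6. The day 6 libraries were at least 3.0 times the day 4 ones, with a log2 difference of 2.38 ± 0.61 (adjusted p = 0.269). Itga3, which binds the laminins that hold Lama3 or Lama5, was at 62.3 and 189 FPKM and then at 100.9 and 66.7 FPKM. Its day 6 libraries lay between those of day 4, and the log2 difference of -0.40 ± 0.72 (adjusted p = 0.804) became -1.20 without day 4 replicate 1 and 0.39 without replicate 2. The ratio of Itga6 to Itga3 was 0.185 and 0.0233 at day 4 and 0.500 and 0.516 at day 6. Itga7, the laminin receptor of muscle, was at 0.101 and 0.0512 FPKM and then at 1.75 and 0.834 FPKM, on at most 2 estimated fragments at day 4.

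Chains of integrins that bind the RGD motif of fibronectin and vitronectin did not share one pattern. Itga5, the fibronectin receptor chain, was at 37.8 and 211 FPKM at day 4 against 68.1 and 63.1 at day 6. The day 4 libraries again enclosed day 6, and the log2 difference of -0.45 ± 0.93 (adjusted p = 0.834) became -1.67 without day 4 replicate 1 and 0.78 without replicate 2. Itgav, which pairs with several beta chains including Itgb3 and Itgb5, was at 5.22 and 3.50 FPKM and then at 12.6 and 9.55 FPKM. Its days were 1.83 times apart at the nearest (log2 difference 1.18 ± 0.45, adjusted p = 0.333) and overlapped after GC correction. Opposite-strand genes share 5.90% of the exonic bases of Itgav. Itga8, of kidney mesenchyme, stayed between 0.563 and 1.95 FPKM with overlapping days. Its log2 difference of 0.03 ± 0.47 (adjusted p = 0.976) was -0.60 after median centring. Itga9, grouped with Itga4 and not with the RGD-binding chains, stayed between 0.491 and 1.49 FPKM. Its log2 difference of 0.20 ± 0.42 (adjusted p = 0.837) was -0.43 after median centring.

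Itgb1, the beta chain shared by most matrix-binding integrins (chr8:128685654-128733579), was at 150.3 and 25.6 FPKM at day 4 against 111 and 115 at day 6. Here day 4 replicate 1 was the highest library and replicate 2 the lowest, the reverse of Lama5, Hspg2 and Itga5, and Itgb1 has a GC content of 44.8%. The log2 difference was 0.84 ± 0.95 (adjusted p = 0.685), or 2.10 without day 4 replicate 1 and -0.41 without replicate 2. Itgb5 (chr16:33829665-33949338), which pairs with Itgav alone and binds vitronectin, was at 11.5 and 20.2 FPKM and then at 59.4 and 62.1 FPKM. Its day 6 libraries were at least 2.94 times those of day 4 (log2 difference 1.92 ± 0.49, adjusted p = 0.269). Itgb5 was 33.4 and 34.1% of the beta chain FPKM at day 6, and 6.95 and 38.7% at day 4, so the days overlapped in its share while they did not in its level. Vitronectin itself, Vtn, was listed at 0 in all 4 libraries.

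Itgb3, the partner of Itgav in many cells and of Itga2b in platelets, was at 0.835 and 0.106 FPKM at day 4 against 2.29 and 3.38 at day 6. The 2 days lay apart (log2 difference 1.41 ± 0.45, adjusted p = 0.297) on an estimated 22 and 3 fragments at day 4. With the pseudocount of 0.1 FPKM its difference was 2.72. Itga2b was at 0.0596, 0.604, 0.767 and 2.18 FPKM, again with both day 6 libraries above both of day 4. The 8 platelet and megakaryocyte markers, which include Itgb3 and Itga2b, summed to 1.12, 1.56, 3.82 and 6.67 FPKM, and Pf4, a defining platelet gene, was listed at 0 in all 4. Itgb4, the hemidesmosome chain, was at 1.5 and 5.44 FPKM and then at 4.15 and 1.58 FPKM, with no separation of the days. Its log2 difference of -0.14 ± 0.69 (adjusted p = 0.932) became -0.82 without day 4 replicate 1 and 0.54 without replicate 2, and 7.66% of its exonic bases overlap a noncoding gene on the other strand.

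In Itga6 and Lamb3 the leading transcript row at day 6 was not the leading row at day 4. These rows are the authors' estimates, each with deposited bounds that cover counting error only. The A form of Itga6, with the 130-base exon shown above, was at 0.000411 and 0.000656 FPKM at day 4, with upper bounds of 0.0667 and 0.0675. At day 6 it was at 30.8 FPKM (bounds 28.9 to 32.9) and 18.6 FPKM (17.0 to 20.2). The B form, without it, was at 11.5 and 4.42 FPKM at day 4 against 19.6 and 15.9 at day 6. So the A form was 61.1 and 53.8% of Itga6 at day 6 and almost none of it at day 4, while the B form was higher at day 6 as well. As background, undifferentiated mouse embryonic stem cells are known to make the B form, and the A form comes in with differentiation. If fragments fell evenly, an A form at the full level of the gene would give the exon about 7 and 3 fragments at day 4 and 52 and 31 at day 6. The day 4 values therefore rest on few fragments from the exon that tells the rows apart.

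For Lamb3 the row with the upstream first exon was at 4.77 and 16.1 FPKM at day 4 against 0.00255 and 0.00292 at day 6. The row with the downstream first exon was at 0.00103 and 0.00622 FPKM at day 4 against 3.75 and 3.22 at day 6. Each library thus gave nearly all of Lamb3 to 1 start site, the upstream one in both day 4 libraries and the downstream one in both day 6 libraries. The first exon of the upstream row has 149 bases and would hold about 3, 11, 4 and 3 fragments if coverage were even. Few fragments thus lie over the part that differs, and the difference between the rows was not tested.

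**Figure D5:**
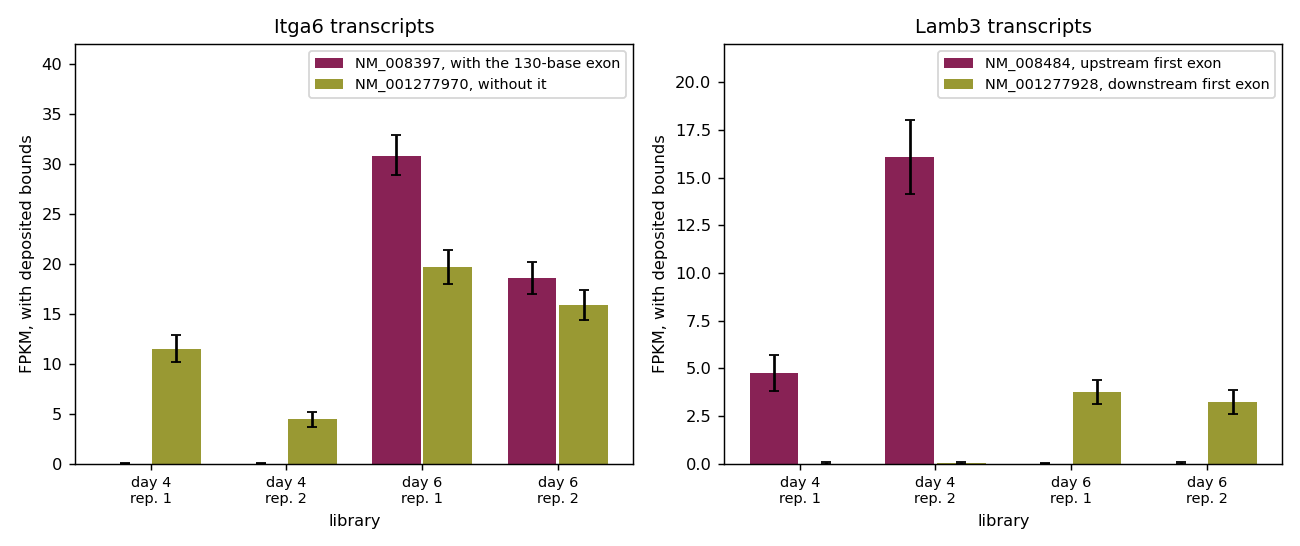
FPKM of the 2 transcript rows of Itga6 (left) and of Lamb3 (right) in each library, with the deposited lower and upper bounds as bars. The Itga6 row with the 130-base exon stands at 30.8 and 18.6 FPKM at day 6 and is not visible at day 4, and the 2 Lamb3 rows take turns between the days.

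Of the 20 members below the filter, 18 stayed under 1 FPKM in every library, Itga2b and Itga7 being the others. The leukocyte integrin chains Itgad, Itgax and Itgb2, with Itgb2l, were listed at 0 in all 4 libraries, and Itgae, Itgal and Itgam did not exceed 0.117 FPKM. Of 8 leukocyte markers Ptprc, Cd52, Tyrobp and Fcer1g were also listed at 0, and Cd48 was at 0 in all but day 6 replicate 1, at 0.102 FPKM. The others were detected: Coro1a at 1.22, 6.62, 0.280 and 0.240 FPKM, Laptm5 at 2.88, 1.95, 2.56 and 1.59, and Spi1 at 1.66, 0.169, 0.171 and 0.588. The collagen-binding chains Itga1, Itga2, Itga10 and Itga11 reached at most 0.513 FPKM. Itga1, the chain for collagen IV, was at 0.134 and 0 FPKM and then at 0.449 and 0.513 FPKM. Itga4, which binds fibronectin and Vcam1, was at 0.425 and 0 FPKM and then at 0.968 and 0.856 FPKM. Itgb8, which activates TGF-beta with Itgav, was lower at day 6, at 0.665 and 0.943 FPKM and then at 0.171 and 0.274 FPKM. These levels rest on 76 fragments or fewer per library. Counted over all 42 members without a filter, 18 were higher, 3 lower and 21 overlapping, beside 26.2% higher and 6.49% lower among all 26994 genes.

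Other gene lists, of 4 kinds, give the setting of these members, and no gene of any of them passed limma's adjusted p. Their counts are to be set beside the shares over all genes tested, 41.6% higher and 11.5% lower as deposited and 20.3% higher and 26.4% lower after median centring. Other basement membrane genes had 14 of 17 tested higher and 1 lower at day 6, with a median log2 difference of 1.55. Col4a1 and Col4a2, the chains of the main collagen IV, were at 24.4 and 48.3 FPKM and 15.7 and 32.2 FPKM at day 4. At day 6 they were at 205 and 144 FPKM and at 147.8 and 108.5 FPKM. Fbln1, which binds laminin and nidogen, was at 3.54, 3.77, 20.2 and 33.5 FPKM, and Frem1 was listed at 0 at day 4, with 1.44 and 3.05 FPKM at day 6. After median centring 12 were higher and 1 lower.

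Integrin ligands outside the basement membrane had 7 of 10 higher and 1 lower, with a median of 1.59, and after median centring 6 were higher and 2 lower. Fn1, fibronectin, was at 139, 181, 679 and 628 FPKM, while its receptor chain Itga5 overlapped between the days. Postn, periostin, was listed at 0 throughout day 4, with 20.5 and 37.6 FPKM at day 6. Tnc was at 0.310, 0.0570, 2.70 and 1.86 FPKM, and Npnt, a ligand of the Itga8 integrin, at 1.87, 0.355, 11.5 and 6.48 FPKM. Postn is also among the fibroblast markers, and Npnt is in the basement membrane list too.

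The adhesion linkers, which tie integrin tails to actin, had 10 of 20 higher and 1 lower, near the 41.6 and 11.5% of all genes, with a median of 0.59 against 0.51 for all genes. After median centring 7 were higher and 3 lower, with a median of -0.04. Ilk, integrin-linked kinase, was at 34.2, 18, 131 and 121 FPKM, the clearest of the list. Tns1 was at 1.12, 2.05, 5.39 and 6.49 FPKM, Lims2 at 1.79, 1.82, 5.26 and 5.79 FPKM, and Fermt3 at 0.322, 0.326, 1.49 and 2.94 FPKM.

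Genes of the dystroglycan complex and of its glycosylation, which makes the sugar chain that laminin binds, had 9 of 14 higher and 1 lower, with a median of 1.09. After median centring 5 were higher and 2 lower. Pomgnt1 was at 1.27, 6.26, 15.3 and 17.0 FPKM, Pomt1 at 2.05, 2.15, 6.11 and 5.78 FPKM, and B4gat1 at 1.25, 4.54, 9.65 and 7.66 FPKM. All 3 enzymes and Dag1 itself were thus higher in both day 6 libraries as deposited.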

How the data were processed

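Per the labels' protocols, RNA came from TRIzol extraction, mRNA from Dynabeads, and the library kit was TruSeq Stranded mRNA. CASAVA and TopHat2 2.0.11 with build mm10 were used, per the submitters' processing notes; the quantifier, annotation, use of strand and any GC correction were not given in the sources used here. The authors deposited FPKM per transcript (35656 rows a library) with bounds and a status. Without counts to use, depth was estimated from the bounds, taken as 2 Poisson standard deviations; low-data status applied to 291 rows in each library, and failed status to 4 in day 4 replicate 2. The deposited coverage signal was not needed.

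Symbols came from RefSeq GRCm38.p6 (30290 rows) and GENCODE M21 (3585 by transcript, 160 by RefSeq link), and 1621 rows kept their ID. Itga10 was matched by a row with the annotated span of that gene. FPKM was summed per symbol. Tests were run in R 4.3.3 with limma 3.58.1 on log2(FPKM + 1), a scale that understates changes of low genes, for genes averaging 1 FPKM or more. The fit had a mean-variance trend, was two-sided and used Benjamini-Hochberg adjustment over all genes tested. The step was tested on simulated data. Groups came from the titles. Members and lists were chosen with earlier results of these data known. Every member may be named; of each other list, up to 4 with the smallest p. Vtn, Afp, Pf4, Srgn, Ptprc, Cd52, Tyrobp, Fcer1g, Cd48, Spi1, Fst, Sparc, Zfp42, Krt5, Trp63 and Rtraf fall outside that rule. They were chosen after their values were seen. The alternatives were a pseudocount of 0.1 FPKM, no filter, median centring, quantile normalization, a lowess GC correction (span 0.3), a replicate block and each library left out. Values of 1 member and of 1 other listed gene are not reported here.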

Additional observations from a re-analysis of the deposited data

How the results depend on the processing

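The counts moved with the scaling and with the day 4 libraries. Members lower at day 6 numbered 3 without a filter, 4 after median centring, 3 after quantile normalization and 5 after GC correction. With 1 library left out they numbered 1 to 7. Among all genes the share lower was 6.49% without a filter, 26.4% after median centring and 27.1% after GC correction. It was not counted after quantile normalization or with 1 library left out. Members higher numbered 12 to 17 with 1 library left out, where the share of all genes higher was not counted either. The members' median log2 difference was 0.20 without a filter, 0.36 after median centring and 0.45 after GC correction, and 0.93 to 1.26 with 1 library left out. The median of all genes was 0.23 without a filter, -0.12 after median centring, -0.02 after quantile normalization, 0.02 after GC correction and 0.37 to 0.66 with 1 library left out. Genes that passed numbered 0 to 7837 and members 0 to 18 with 1 library left out.

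The replicate numbers share only a number (correlation of the replicate 1 deviations of the days -0.0904 over 11716 genes, 2 pairs); with a replicate block 67 genes passed, none of them among the 42 members.

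Signs turned for Hspg2 (-0.14), Itga8 (-0.60), Itga9 (-0.43) and Lama5 (-0.45) after median centring, for Itga8 (-0.76) and Itga9 (-0.59) after quantile normalization, and for Itga8 (-0.54) and Itga9 (-0.46) after GC correction. With 1 library left out, the difference ran from -0.86 to 1.84 for Hspg2, -1.10 to 1.47 for Lama5, -1.20 to 0.39 for Itga3, -1.67 to 0.78 for Itga5, -0.42 to 0.49 for Itga8, -0.17 to 0.57 for Itga9, -0.41 to 2.10 for Itgb1, -0.82 to 0.54 for Itgb4 and -1.10 to 0.12 for Nid2. The cause was not tested. A pseudocount of 0.1 FPKM raised the difference of Lama1 to 4.27, Lama4 to 3.97 and Itgb3 to 2.72. The 12 members higher at day 6 stayed above 0, and Lamb3 below 0, under median centring, quantile normalization and GC correction. The other alternatives could not turn the sign of a gene whose days lay apart as deposited. Each difference is to be read against the median of all genes under the same setting, not against 0. Depth limits members under 1 FPKM, most of all at day 4.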

Other observations

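Transcript rows of other members are given here as values. Of Itgb4, the row NM_001005608 was at 0.427 and 0.506 FPKM at day 6, which was 10.3 and 32% of the gene, and its upper bounds at day 4 were 0.0635 and 0.0641 FPKM. Of Itgb5, the row NM_001145884 held 98.4% or more of the gene in every library. Dag1 has 7 rows. The row NM_001276485 of Dag1 held 52.1% of the gene in day 4 replicate 1 and 9.38% in day 6 replicate 2. In day 4 replicate 2 and day 6 replicate 1 that row was at 0.00215 and 0.0918 FPKM. The Dag1 rows are of nearly the same length (5378 to 5591 bases), and replicates of a day differed in them, so only the sum was used above.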
